A study of Mus musculus with 5 samples.

Results

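The cytoplasmic ribosomal proteins are the proteins of the ribosome that translates nuclear mRNAs. They were taken here as the mouse genes whose symbol is Rpl or Rps followed by a number and at most 1 letter, together with Rpsa, Rplp0, Rplp1 and Rplp2. This rule found 82 of the 24843 genes of the deposited tables, 50 of the large subunit and 32 of the small subunit, on 19 chromosomes. RNA sequencing of neural stem cells (NSCs, 2 replicates) was compared with that of STO cells (3 replicates). The NSCs were primary cells from embryonic mouse cortex, expanded for 5 to 8 passages on poly-ornithine and laminin with growth factors. STO cells are an established line of SIM mouse embryonic fibroblasts, grown in serum and labelled as past passage 30. All 5 samples carry the strain label C57BL/6, although the paper describes STO as a SIM line resistant to thioguanine and ouabain. The strain of the STO cells is therefore uncertain. No treatment of any sample is given. Cell type, passage number, medium and possibly genetic background changed together and cannot be told apart. The values are FPKM, fragments scaled by transcript length and by the mapped fragments of the sample, and were summed over the RefSeq transcripts of each symbol.

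A ribosome holds 1 copy of nearly every ribosomal protein beside its ribosomal RNA, so a cell needs these proteins in about equal numbers. Their mRNAs are among the most abundant of growing cells. They usually begin with a C followed by an uninterrupted run of pyrimidines, the 5′ terminal oligopyrimidine (TOP) motif, through which mTORC1 and LARP1 control their translation. Ribosomal protein genes also leave many processed pseudogenes, copies of the spliced mRNA elsewhere in the genome, whose sequence can be nearly that of the gene. A read from such a sequence can align to several places, and while the study aligned its reads with default settings, how such reads were then divided between genes is not given in the sources used here.

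The start sites of 7 members among the largest rises and falls described below show how the longest pyrimidine run varied around the annotated start. Such a run need not be the TOP motif. Each is a window of 30 bases from RefSeq in GRCm38.p6, 15 before the annotated start and 15 from it on, written along the strand of the gene, with the longest run of C and T in capitals.
Rps26, chr10:128626492-128626521, minus strand: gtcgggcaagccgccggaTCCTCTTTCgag
Rps2, chr17:24720048-24720077, plus strand: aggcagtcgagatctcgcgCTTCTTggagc
Rps18, chr17:33955651-33955680, minus strand: tacgtcacttccgCTCTCTCTTCCacagga
Rplp0, chr5:115559452-115559481, plus strand: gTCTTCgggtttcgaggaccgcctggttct
Rpl7a, chr2:26910792-26910821, plus strand: aTTCCCTCTTCTTTCTTTCTCCagcagccg
Rpl12, chr2:32961697-32961726, plus strand: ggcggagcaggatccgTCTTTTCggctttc
Rpl27a, chr7:109519180-109519209, plus strand: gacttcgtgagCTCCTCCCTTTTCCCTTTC
The run was 21 bases long in Rpl7a and 19 in Rpl27a, which fell in STO cells, and 9, 6, 11 and 5 bases in Rps26, Rps2, Rps18 and Rplp0, which rose. Rpl12, which fell, had a run of 7 bases. Rpl11 and Rpl34, not shown but also among the 6 largest falls, had runs of 3 and 18 bases. Of the 61 members with an entry in the RefSeq table, 27 (44.3%) held a run of at least 8 pyrimidines on the gene's strand, against 14.1% of 18388 genes with an entry and 13% of 69 mitochondrial ribosomal protein genes. A C followed by at least 4 pyrimidines and lying within 5 bases of the start was found in 47.5% of members and in 21.6% of all genes with an entry. The tract length did not sort the members by direction. Among the 25 tested members with a run of at least 8 bases, 4 were higher and 16 lower in STO cells. Their median difference was -0.63 in log2(FPKM + 1). Among the 31 with a shorter run, 6 were higher and 19 lower, with a median of -0.57. Of all genes tested, 41.9% were higher and 43.7% lower. Where the annotated start is not the base at which most transcripts begin, the window can miss the motif.

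Both cultures carried the markers of their labels. The summed FPKM of 6 NSC marker genes, Nes and Sox2 among them, was 3811 to 4028 in NSCs and 0.0442 to 0.0724 in STO cells. The 6 fibroblast genes summed to 1352 to 1462 in STO cells and to 5.05 to 5.12 in NSCs, where Fn1 held most of the sum. The 7 neuron and glia genes summed to 146 to 148 in NSCs and to 8.89 to 9.56 in STO cells, and their part in the differences described here was not tested. The intervals deposited with the FPKM values, read as counting error, implied 15223341 to 22271895 fragments per sample. In the comparison of the cell types by limma, 85.7% of 12277 genes tested had an adjusted p-value under 0.05, so a call alone says little about a gene. The labels do not say whether replicates were separate cultures, and the p-values then measure only the spread between these samples.

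Ribosomal protein mRNAs took a smaller share of the transcriptome in each STO replicate than in either NSC replicate. Members held 14.9% and 14.4% of the summed FPKM in NSC replicates 1 and 2, and 12.5%, 11.7% and 12.6% in STO replicates 1, 2 and 3. The groups did not overlap. The mean was 14.7% ± 0.37 (SD, n = 2) in NSCs and 12.3% ± 0.49 (SD, n = 3) in STO cells, a difference of -2.4 percentage points, and the exact two-sided permutation test gave p = 0.2, the smallest value that the 10 arrangements of 2 against 3 samples allow. Without Rpl7a and Rpl12, the members that fell furthest, the difference was -1.91 percentage points, with shares of 14.1% ± 0.4 (SD, n = 2) and 12.1% ± 0.47 (SD, n = 3). In bulk RNA a lower share of all transcripts cannot be told apart from more of other transcripts, and RNA per cell was not measured.

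The ratio of large to small subunit mRNA was lower in each STO replicate than in either NSC replicate. The summed FPKM of large subunit genes was 1.66 and 1.73 times that of small subunit genes in NSCs, and 1.55, 1.59 and 1.53 times in STO cells. The means were 1.69 ± 0.052 (SD, n = 2) and 1.56 ± 0.03 (SD, n = 3), again without overlap and again at the smallest possible p of 0.2 in the exact permutation test. Rpl7a and Rpl12 are both large subunit genes, with means of 1643 and 1055 FPKM in NSCs and 257 and 199.9 in STO cells. Whether the ratio stays lower in each STO replicate without these genes was not tested, so it does not show a shift of the large subunit as a whole. Genes of the mitochondrial ribosome, which are transcribed in the nucleus but serve the mitochondrial genome, held 0.769% and 0.826% of FPKM in NSCs and 0.63%, 0.585% and 0.641% in STO cells. The ratio of cytoplasmic to mitochondrial ribosomal protein FPKM was 19.4 and 17.4 in NSCs and 19.8, 20 and 19.7 in STO cells. The means were 18.4 ± 1.4 (SD, n = 2) and 19.8 ± 0.16 (SD, n = 3). These replicates did not overlap either, and the exact permutation test again gave p = 0.2. The difference was of the size of the spread between the NSC replicates.

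**Figure D1:**
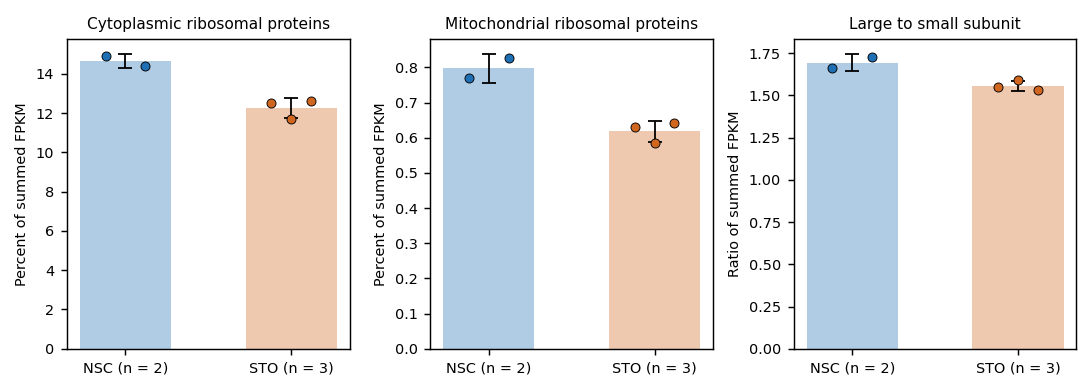
Percent of summed FPKM held by cytoplasmic and by mitochondrial ribosomal protein genes, and the ratio of large to small subunit FPKM, with 1 point per replicate, bars at the mean and error bars of 1 SD. Cytoplasmic members held 14.4% to 14.9% in NSCs and 11.7% to 12.6% in STO cells, and the ratio was 1.66 to 1.73 and 1.53 to 1.59.

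Gene by gene, most members were lower in STO cells, but a clear minority was higher. Of the 82 members, 76 had a mean FPKM of at least 1 in either cell type and were tested on log2(FPKM + 1) with limma. With an adjusted p-value under 0.05, 15 were higher and 47 lower in STO cells, and 14 were not called, where 41.9% of all genes tested were called higher and 43.7% lower. The median difference over members was -0.55, against -0.023 over all genes tested and -0.27 over the 872 other genes with a mean of 100 FPKM or more, of which 35.2% were higher and 52.8% lower. Every STO replicate lay above every NSC replicate for 17 members and below for 52, against 43.9% and 46% of all genes. A change of at least 1 in log2(FPKM + 1) was called for 5 members upward and 15 downward, against 17.1% and 21.3% of all genes tested. The 5 include Rpl30, which is listed at 0 in both NSC replicates. In the large subunit 8 of 46 tested genes were higher and 30 lower with a median of -0.67, and in the small subunit 7 of 30 were higher and 17 lower with a median of -0.42.

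The split between rises and falls depended on the scaling. With quantile normalization, which gives each sample the same distribution of values and so takes away differences shared by the most abundant genes, 25 members were higher and 34 lower (44.4% and 41.1% of all genes), so that 42.4% of the called members were higher against 24.2% in the values as deposited. The median over members was then -0.16, over the large subunit -0.21, over the small subunit -0.034, and over the other genes with a mean of 100 FPKM or more it was -0.10. Scaling to a fixed sum (TPM) moved the median of all genes to 0.12 and that of members to -0.37, with 19 members higher and 40 lower (46.9% and 38.7% of all genes). Relative to the median of all genes, members stood at -0.52 as deposited, -0.50 by TPM, -0.53 by the median of ratios, -0.52 when scaled without ribosomal protein genes, and -0.20 after quantile normalization. The 77 tested mitochondrial ribosomal protein genes had a median of -0.49 as deposited and after quantile normalization, and of -0.33 by TPM.

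**Figure D2:**
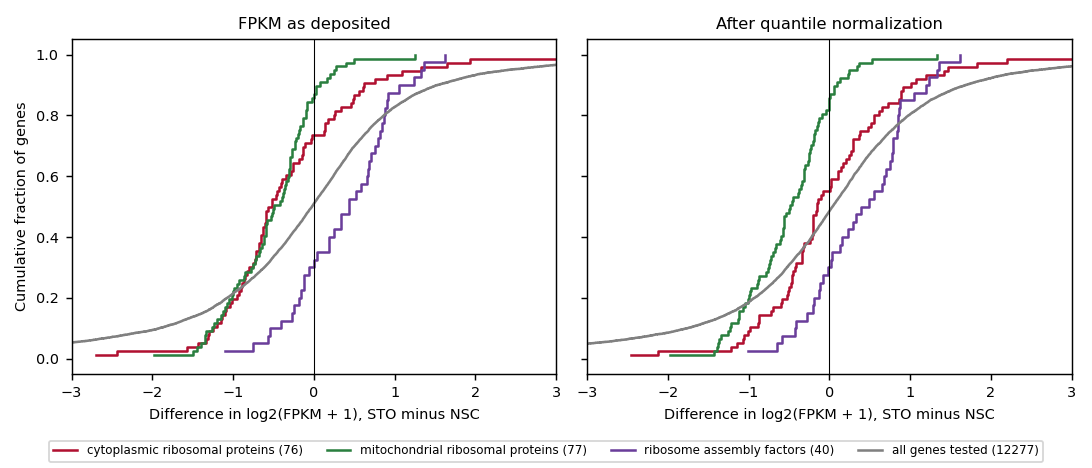
Cumulative fraction of genes against the difference in log2(FPKM + 1), STO minus NSC, for 76 cytoplasmic and 77 mitochondrial ribosomal protein genes, 40 ribosome assembly factors and 12277 genes tested, with FPKM as deposited and after quantile normalization. The median of cytoplasmic members moves from -0.55 to -0.16, while mitochondrial ribosomal proteins stay at -0.49 and assembly factors at 0.44.

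The order of the members, and not only their level, differed between the cell types. Over the 76 tested members, Spearman's rho of FPKM was 0.974 between the NSC replicates, 0.986 to 0.988 between STO replicates and 0.606 to 0.653 between an NSC and a STO replicate. These are descriptions over genes, which are not independent, and the samples of a pair share no library. The median absolute difference between replicates was 0.10 to 0.19 in log2(FPKM + 1), and between cell types it was 0.60 to 0.78. The differences of members had an SD of 0.80 with Rpl30 left out, against 0.54 for mitochondrial ribosomal proteins, 2.73 for other genes with a mean of 100 FPKM or more and 1.70 for all genes tested. Although the proteins are used in about equal numbers, the FPKM of tested members ran from 0 to 2537, and 8 of them had a mean under 100 in at least 1 cell type.

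Rpl41, which encodes a very short basic peptide at the interface of the subunits, had the highest FPKM in NSCs, 2328 and 2537, and fell to 1798, 1714 and 1802 in STO cells. Rpl23a, at the exit of the peptide tunnel, overlapped with it in NSCs at 2305 and 2462 FPKM and reached 1246, 1278 and 1225 in STO cells. The adjusted p-values in limma were 0.0026 and 5e-05. The sign of Rpl41 was not stable, since its log2 difference was -0.46 as deposited and 0.02 after quantile normalization, and the call was also lost without NSC replicate 2 (-0.39, adjusted p = 0.059) and without the filter on low values (adjusted p = 0.24). Rplp0 held the highest level in STO cells. Rps23, in the decoding centre, had 1604 and 1727 FPKM in NSCs and 975, 921 and 967 in STO cells. Rpl8, near the peptidyl transferase centre, differed little, with 1304 and 1277 in NSCs and 1218, 1093 and 1186 in STO cells, a log2 difference of -0.15 that was not called (adjusted p = 0.13) and had the opposite sign by TPM and after quantile normalization.

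**Figure D3:**
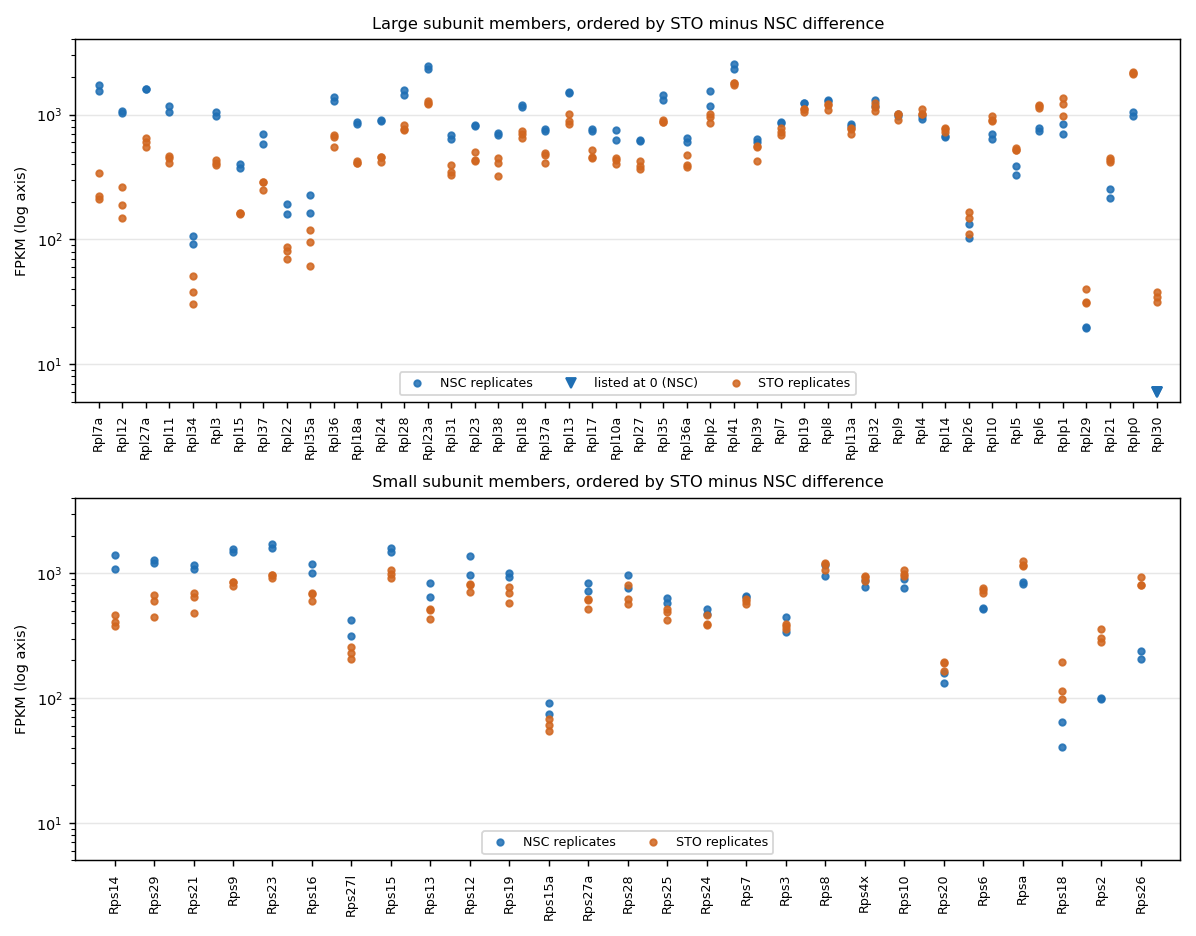
FPKM on a log axis of 73 of the tested members in each replicate, large subunit above and small subunit below, ordered by the difference between STO cells and NSCs. Rpl7a and Rpl12 lead the falls and Rps26, Rps2 and Rps18 the rises of members found in both cell types, and Rpl30 is drawn at the foot of the axis for the NSC replicates, where it is listed at 0.

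Rpl7a and Rpl12 fell furthest. Rpl7a (chr2:26766327-26768831 in mm9, the build of all gene positions given here), an RNA-binding protein on the surface of the large subunit, had 1555 and 1731 FPKM in NSCs and 222, 211 and 338 in STO cells. It went from among the highest members to among the lower ones, 6.51-fold lower on the log2(FPKM + 1) scale (log2 difference -2.70, SE 0.21, adjusted p = 2.9e-05). Rpl12 (chr2:32817232-32819565), which anchors the stalk of the large subunit to ribosomal RNA, had 1036 and 1073 FPKM in NSCs and 189.6, 148 and 262 in STO cells. It was 5.4-fold lower (log2 difference -2.43, SE 0.22, adjusted p = 7.1e-05). The other members of the 6 largest falls were Rps14, Rpl27a, Rpl11 and Rpl34, with log2 differences of -1.57, -1.43, -1.33 and -1.31 and adjusted p-values of 7.1e-05, 1e-05, 1.7e-05 and 0.001. Rps14, a protein of the platform of the small subunit, had 1077 and 1411 FPKM in NSCs and 465, 377 and 409.5 in STO cells. Rpl27a had 1611 and 1614 FPKM in NSCs and 599.5, 552 and 646 in STO cells. For each of these genes every STO replicate was below every NSC replicate. The other lower members had log2 differences from -1.30 (Rpl3) to -0.19 (Rpl19).

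Rps26, Rps2 and Rps18 rose most among the members found in both cell types. Rps26 (chr10:128061585-128063562), which lines the mRNA exit channel of the small subunit, had 205 and 237 FPKM in NSCs and 803, 807 and 934 in STO cells. It was 3.83-fold higher in STO cells (log2 difference 1.94, SE 0.10, adjusted p = 5e-06). Rps2 (chr17:24857008-24858872), at the mRNA entry, had 98.1 and 99.7 FPKM in NSCs and 300.2, 283 and 359.6 in STO cells, 3.14-fold higher (log2 difference 1.65, SE 0.11, adjusted p = 1.3e-05). Both genes therefore changed from levels far below the median member in NSCs (831 FPKM) toward the median member in STO cells (598 FPKM), and Rps26 passed it. Rps18, in the head of the small subunit, had 64.4 and 40.3 FPKM in NSCs and 114, 98 and 195 in STO cells, with a log2 difference of 1.33 (adjusted p = 0.0083) that was not called without NSC replicate 2 (log2 difference 1.00, adjusted p = 0.15). Rpl21 of the large subunit had 252 and 213 FPKM in NSCs and 420.3, 429.9 and 450.2 in STO cells, a log2 difference of 0.90 (adjusted p = 0.0001). The other higher members were Rpl5, Rpl6, Rpl10, Rpl29, Rplp1, Rps6, Rps10, Rps20 and Rpsa, with log2 differences from 0.26 (Rps10) to 0.75 (Rpl29).

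Rpl30 was listed at 0 in both NSC replicates and at 38.2, 34.8 and 31.7 FPKM in STO replicates 1, 2 and 3. Its protein is part of every ribosome, and an exact 0 in such a file can be a failed estimate, so no fold change is given, although it counts among the 15 higher members. Rps27, another core protein, was listed at 0 in all 5 samples under its own transcripts (chr3:90016589-90017570). The files place a further transcript, NM_001190258, at this same locus (chr3:90016589-90017569), with 839 and 753 FPKM in NSCs and 516, 393 and 598 in STO cells. RefSeq now names this transcript Rps27rt and lists it on another chromosome, so by symbol it is not a member, and the values of the Rps27 locus stand under that name. Its log2 difference was -0.68 (adjusted p = 0.011), and the call was lost without either NSC replicate (adjusted p = 0.14 and 0.091) and after quantile normalization (adjusted p = 0.067). Rpl10l and Rpl39l, known from testis, were also listed at 0 in all 5 samples. Rpl3l, known from striated muscle, Rps4l and Rpl32l stayed under 1 FPKM in every sample, so 6 members in all were not tested. Rps27l, a paralog of Rps27 induced by p53, was the tested member of the paralogs with restricted use, at 313 and 423 FPKM in NSCs and 257, 207 and 230.1 in STO cells. Its log2 difference was -0.66 (adjusted p = 0.006), and without NSC replicate 2 it was -0.44 and not called (adjusted p = 0.068).

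The stalk of the large subunit, which recruits the elongation factors, split in both directions. Rplp0 (chr5:116009476-116013738), its base, had 975 and 1048 FPKM in NSCs and 2206, 2164 and 2106 in STO cells, 2.13-fold higher (log2 difference 1.09, SE 0.08, adjusted p = 2.4e-05). Rplp1 had 838 and 694 FPKM in NSCs and 1355, 978 and 1217 in STO cells. Its partner Rplp2 went the other way, from 1541 and 1169 FPKM in NSCs to 955, 857 and 1009 in STO cells. The log2 differences were 0.62 and -0.52 (adjusted p = 0.01 and 0.013 in limma). Neither call was stable: that of Rplp1 was lost without NSC replicate 1 (adjusted p = 0.058) or 2 (adjusted p = 0.15), and that of Rplp2 without NSC replicate 1 (log2 difference -0.32, adjusted p = 0.11). With Rpl12, which also sits at this site, 2 of the 4 genes rose and 2 fell. This split is near that of all genes tested, 41.9% higher and 43.7% lower.

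Rpl5 and Rpl11, which carry the 5S ribosomal RNA into the large subunit and bind MDM2 when ribosome assembly is disturbed, also moved apart. Rpl5 had 389 and 326 FPKM in NSCs and 520.5, 517 and 540.4 in STO cells (log2 difference 0.56, adjusted p = 0.0012). Rpl11 had 1176 and 1052 FPKM in NSCs and 452, 408 and 467 in STO cells (log2 difference -1.33, adjusted p = 1.7e-05). Rpl11 had the higher FPKM of the pair in both NSC replicates and Rpl5 in all 3 STO replicates.

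Of 5 genes around the peptide tunnel, 0 were called higher and 3 lower in the values as deposited. The shares over all genes tested were 41.9% higher and 43.7% lower. Rpl17, which lines the tunnel, and Rpl23a and Rpl35 at its exit fell by 0.67, 0.93 and 0.63 on the log2 scale (adjusted p = 0.00052, 5e-05 and 0.00031). Rpl4, which forms the constriction of the tunnel, had 978 and 925 FPKM in NSCs and 1013, 1012 and 1105 in STO cells (adjusted p = 0.16), and it was called higher by TPM (log2 difference 0.31), after quantile normalization (0.55) and when scaled without ribosomal protein genes (0.27). Rpl39 had 632 and 604 FPKM in NSCs and 549, 422 and 559.5 in STO cells, a log2 difference of -0.29 (adjusted p = 0.086) that became 0.16 after quantile normalization.

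Along the mRNA path of the small subunit, the rise of Rps2 stood beside a fall of Rps23, by 0.80 on the log2 scale (adjusted p = 0.0001). Rps3, at the mRNA entry, had 443 and 340.2 FPKM in NSCs and 381, 359 and 394 in STO cells. These ranges overlapped, and the sign of the log2 difference, -0.039 as deposited (adjusted p = 0.77), turned under 3 of the other scalings and without NSC replicate 1.

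A list was read of 10 members whose human counterparts are mutated in Diamond-Blackfan anaemia, an inherited failure of red cell production. It does not hold every such gene. In this list 3 were higher in STO cells, Rps26 and Rpl5 with the largest rises, and 4 were lower, Rpl11 and Rpl35a with the largest falls. The other 3 were not called, and among all genes tested 41.9% were higher and 43.7% lower. The median was -0.20 as deposited and 0.22 after quantile normalization. Rpl35a had 225 and 163 FPKM in NSCs and 94.9, 61.7 and 119 in STO cells (log2 difference -1.10, adjusted p = 0.01), and without NSC replicate 1 or 2 the adjusted p-value was 0.16 or 0.067.

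The symbol rule leaves out some ribosomal proteins and paralogs with other names. Rps3a1 was level, at 843 and 719 FPKM in NSCs and 808, 787 and 824 in STO cells, with a log2 difference of 0.051 as deposited (adjusted p = 0.61), -0.063 without NSC replicate 2 and 0.45 after quantile normalization. Fau, a fusion with Rps30, had a log2 difference of -0.092 as deposited (adjusted p = 0.34) and 0.35 after quantile normalization. Rpl22l1 and Rpl36al fell by 1.18 and 0.52, with adjusted p-values of 0.0017 and 0.0007. Rpl7l1 was called higher by 0.18 (adjusted p = 0.031) but not without 4 of the 5 replicates, each left out singly.

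Some members differed in which transcript was listed. Rps24 encodes a protein of the small subunit whose mRNA is spliced in several ways near its 3′ end. Its summed FPKM was 515 and 472 in NSCs and 390.0, 386 and 464 in STO cells, a log2 difference of -0.26 that was not called (adjusted p = 0.053). In NSCs all of it was given to transcript NM_011297. In STO cells this transcript had 145, 143 and 170.4 FPKM, and NM_207634, listed at 0 in both NSC replicates, had 245, 243 and 294 FPKM, or 62.9%, 62.9% and 63.3% of the gene. In a limma fit over 16257 transcripts, NM_011297 fell by 1.69 on the log2 scale (SE 0.10, adjusted p = 0.00011). So the replicates of each cell type were close to each other in this split, and the cell types did not overlap.

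A second transcript appeared only on the STO side for Rpl10a and Rpl34 as well. For Rpl10a, NM_001357628 was listed at 0 in both NSC replicates and made up 13%, 11.7% and 10.9% of the gene in STO cells, while NM_011287 fell by 0.86 (adjusted p = 0.0013 in limma). For Rpl34, NM_026724 was listed at 0 in both NSC replicates and made up 28.7%, 23.2% and 27.4% in STO cells, while NM_001005859 fell by 1.74 (adjusted p = 0.0014). By contrast, NM_001048057 made up 23.2% and 23.5% of Rpl38 in NSCs and 23.3%, 23.5% and 22.2% in STO cells. The split was not always stable within a cell type. A transcript of Rpl30 made up 54.8%, 54.9% and 0% of the gene in STO replicates 1, 2 and 3. A transcript of Rpl29, a gene of low FPKM, made up 10.6%, 0% and 6.98%. All these splits are estimates made by Cufflinks from reads that the transcripts share, and no error of the split was used here.

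**Figure D4:**
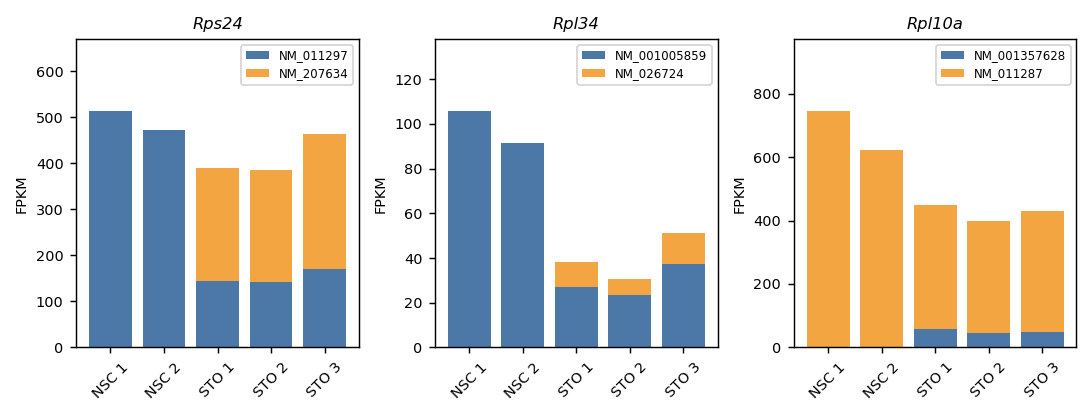
FPKM of the 2 listed transcripts of Rps24, Rpl34 and Rpl10a, stacked for each replicate. One transcript of each gene is listed at 0 in both NSC replicates and present in all 3 STO replicates, where it makes up 62.9% to 63.3% of Rps24, 23.2% to 28.7% of Rpl34 and 10.9% to 13% of Rpl10a.

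Most members have near-identical sequence elsewhere in the genome, which limits how far a single member's value can be read. A copy was counted where at least 90% of the coding sequence aligned as 1 unspliced stretch of mm9 outside the gene. Of 75 tested members with a count, 71 had a copy of at least 95% identity, with 566 such copies in all and up to 55 for 1 gene, Rpl21. At 98% identity or more, Rpl7a had 11 copies, Rpl12 3, Rps26 1, Rps2 9, Rps18 4, Rplp0 1 and Rpl30 6, and the source of the reads was not tested for any of these genes.

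The 13 tested members without a copy of at least 98% identity were either lower or not called. Of these, 8 were lower in STO cells, Rps14 and Rpl22 furthest, 5 were not called (Rpl13a, Rpl32, Rpl4, Rpl8 and Rps3) and 0 were higher by limma, with 0 higher and 8 lower also at an unadjusted p-value under 0.05. Of all genes tested, 41.9% were higher and 43.7% lower. Most members had a copy of at least 98% identity, 62 of the 75 with a count. All 15 members that were higher were among these 62, as were 38 of the lower ones. These calls hold for the values as deposited: Rpl4 was called higher under 3 other scalings, as given above, and Rpl8 after quantile normalization (log2 difference 0.24, adjusted p = 0.0065 in limma). The medians were nearly the same, -0.59 without and -0.55 with a copy. The difference between these groups of genes was not tested. Rps14 fell furthest among the members without a copy, by 1.57. The median absolute log2 difference was 0.59 for the 13 members without a copy, 0.62 for 47 members with 1 to 4 copies and 0.90 for 15 members with at least 5, and the median level was 812, 662 and 588 FPKM. Across these members, Spearman's rho between the number of copies and the absolute log2 difference was 0.2, a weak relation given as a description.

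**Figure D5:**
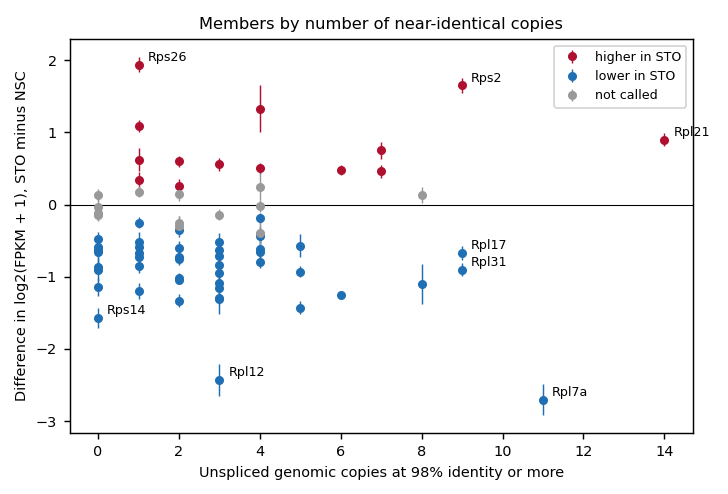
Difference in log2(FPKM + 1), STO minus NSC, of each tested member with a copy count except Rpl30, against the number of unspliced genomic copies of at least 98% identity, with error bars of 1 SE. The 13 members at 0 copies lie between -1.57 and 0.13, and the members drawn at 5 or more copies reach from -2.70 to 1.65.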

How the data were processed

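RNA-seq of 2 NSC and 3 STO samples was used. By the study's methods and the submitters' processing notes, stranded mRNA libraries were aligned to mm9 with HISAT2 (version given as 4.8.2), and the authors deposited FPKM values with confidence bounds from Cufflinks 2.2.1 for 40201 RefSeq transcripts per sample. Depth and transcript length were thus divided out before deposit. Of the transcripts, 39951 (99.4%) were matched to symbols through a RefSeq table of GRCm38.p6, used only for names and for the start windows, whose positions are in that build; gene positions are those of the mm9 files, with starts converted to count from 1. FPKM was summed per symbol and sample. Members had 127 transcripts, 39 of them listed at 0 in all 5 samples.

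Genes averaging 1 FPKM or more in either cell type were fitted with limma 3.58.1 (lmFit, eBayes with trend; R 4.3.3) on log2(FPKM + 1), without covariates, with Benjamini-Hochberg adjustment over all 12277 genes calling adjusted p-values under 0.05. The pseudocount of 1 makes fold changes of low genes too small. Shares and ratios per sample were compared by exact two-sided permutation tests. Genomic copies were found with blastn 2.17.0 from the CCDS coding sequences of GENCODE vM1, available for 79 members, against the mm9 genome, and pyrimidine runs were read from the RefSeq windows. The fit was also run on simulated data with independent noise and few changed genes. Most genes were called in the real data, so that run does not test the calls given here.

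Named genes were the 6 largest rises and falls and the 5 highest levels among members, members not tested, all genes of the lists for the stalk, 5S particle, tunnel, mRNA path, restricted paralogs and proteins outside the symbol rule, and the 2 largest rises and falls of each other list. A few genes are not reported here. Members and lists were chosen with earlier results of these data known. Alternatives changed the pseudocount, the filters, the scaling, the trend, the transcript used, the replicate block and each replicate. Restricting members by copies or to means of 100 FPKM or more, and the transcript fit, were chosen after seeing the data.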

Additional observations from a re-analysis of the deposited data

How the results depend on the processing

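The median log2 difference of members was -0.37 by TPM, -0.16 after quantile normalization and -0.41 when scaled without ribosomal protein genes, against -0.55 as deposited; the count of higher members rose to 25 after quantile normalization. Asking for a log2 change of at least 1 left 5 higher and 15 lower, and members without a copy of at least 98% identity gave 0 and 8. Leaving out 1 replicate at a time gave 11 to 16 higher, 36 to 48 lower, a median of -0.58 to -0.48, a difference in share of -2.66 to -2.12 percentage points and in the subunit ratio of -0.173 to -0.0997. Signs turned for Fau (0.082 by TPM, 0.35 by quantile normalization, 0.042 without ribosomal protein genes), Rpl8 (0.026 by TPM, 0.24 by quantile normalization), Rps3 (0.14, 0.27 and 0.10 under these 3 scalings, 0.15 without NSC replicate 1, -0.23 without replicate 2), Rpl39 (0.16) and Rpl41 (0.02) by quantile normalization, and Rps3a1 (-0.063 without NSC replicate 2, 0.17 without replicate 1). Of 911 values of 57 named genes under the alternatives, 854 kept direction and side of the threshold, 37 lost and 8 gained the call. For these shifts, the cause was not tested. The correlation of deviations from the cell type mean was 0.0029 and 0.065 for same replicate numbers and -0.065 to 0.059 for others. With 2 NSC replicates the deviations of 1 mirror those of the other, so these values can say little about pairing. With the replicate number as a block 15 members were higher and 49 lower, with a median of -0.58. Read counts were not used, and the part of depth in the low values was not tested. The members listed at 0 cannot be ordered.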

Other observations

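Genes that assemble the ribosome were more often higher than lower in STO cells. Of 40 assembly factors tested, 25 were higher and 7 lower in STO cells by limma, with a median of 0.44 in log2(FPKM + 1), and the median was 0.40 to 0.62 under the other scalings. Nmd3, which exports the large subunit from the nucleus, had 16.9 and 18 FPKM in NSCs and 53.1, 54.6 and 60.4 in STO cells (log2 difference 1.63, adjusted p = 1.9e-06). Utp20 of the small subunit processome rose from 6.98 and 6.09 to 17.9, 18.6 and 18.5 FPKM (log2 difference 1.36, adjusted p = 3.2e-06). Nop10 and Nhp2, small proteins of the H/ACA particles that guide pseudouridylation, fell by 1.09 and 0.75 (adjusted p = 2.2e-05 and 0.0012). Of 11 chaperones, importers and p53 branch genes, 8 were higher and 2 lower with a median of 0.31. Mdm2, the ligase that Rpl5 and Rpl11 bind, had 17 and 19.2 FPKM in NSCs and 55, 56.7 and 51.7 in STO cells (log2 difference 1.54, adjusted p = 2.6e-06), and Pdcd2, a chaperone of Rps2, rose by 1.06 (adjusted p = 3.8e-05). Tsr2, a chaperone of Rps26, fell by 0.53 (adjusted p = 0.00055), while Rps26 itself rose by 1.94. Aamp fell by 0.22 (adjusted p = 0.025), a call that was lost by TPM and by quantile normalization. The background was 41.9% of genes higher and 43.7% lower.

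Of the 16 other translation genes with TOP mRNAs, 5 were higher, 3 lower and 8 not called. Of all genes tested, 41.9% were higher and 43.7% lower. The median of these 16 genes was 0.0045 as deposited, 0.31 after quantile normalization and -0.038 by the median of ratios. Npm1 and Pabpc1 rose by 0.91 and 0.85 (adjusted p = 0.00027 and 0.00039), and Eif3f and Naca fell by 1.11 and 0.68 (adjusted p = 1.6e-05 and 0.00019). Eef1a1, the main elongation factor, had 5217 and 5020 FPKM in NSCs and 4668, 5172 and 4677 in STO cells and was not called (adjusted p = 0.48). Of 16 mTORC1 and TOP regulators, 8 were higher and 7 lower. Larp1 had 31.4 and 30.6 FPKM in NSCs and 61.4, 64 and 57.4 in STO cells (log2 difference 0.95, adjusted p = 1.4e-05). Rheb, the activator of mTORC1, rose by 0.82 (adjusted p = 8.9e-06), and Myc and Eif4ebp2 fell by 0.82 and 0.81 (adjusted p = 0.00025 and 8.5e-05). Of 12 RNA polymerase I genes found, 5 were higher and 3 lower with a median of 0.081; Taf1d and Polr1b rose by 1.18 and 0.42 (adjusted p = 9.9e-06 and 0.00082), and Polr1e and Polr1c fell by 0.53 and 0.37 (adjusted p = 0.00042 and 0.0022). Of the 77 mitochondrial ribosomal protein genes, 5 were higher and 56 lower, against the same 41.9% and 43.7% of all genes tested. Mrps33 fell most, from 58.4 and 58.1 to 15.1, 13.5 and 13.4 FPKM (log2 difference -1.98, adjusted p = 4.5e-07), followed by Mrpl34 (-1.50, adjusted p = 4.3e-05), and Mrpl33 rose by 1.25 (adjusted p = 7.5e-05) and Mrps18c by 0.49 (adjusted p = 0.013), the latter not called without NSC replicate 1 (adjusted p = 0.1).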
